A study of Mus musculus with 4 samples.

Results

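The response of interferon-γ (IFN-γ) activated macrophages to interleukin-1α (IL-1α) was read from 2 of the 4 arrays of the series, as the log2 signal of each gene on the IL-1α array minus that on the vehicle array. Both arrays held RNA of macrophages that the submitters call M1, grown from the bone marrow of C57BL/6N mice. The marrow cells had grown in medium with macrophage colony-stimulating factor (M-CSF) at 10 ng/mL until harvest on day 9. IFN-γ at 10 ng/mL for 48 h set the M1 state, and the cells of the second array also received IL-1α at 10 ng/mL for 24 h. The other 2 arrays carried the same pair of treatments in M2 macrophages, which had IL-4 at 20 ng/mL in place of IFN-γ, and serve here only as values set side by side. The series asked how the responses of M1 and M2 cells to IL-1α differ. Each condition was measured on 1 array, so no difference below has a replicate check or a test, and the labels name neither the number of mice nor whether cultures were separate. The labels do not say whether IFN-γ was still present during the IL-1α incubation.

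IL-1α is a membrane-bound and released inflammatory cytokine that signals through the IL-1 receptor, its accessory protein and the adaptor MyD88 to IRAK kinases and TRAF6. These activate the TAK1 and IKK kinases, which release NF-κB dimers from IκB proteins and turn on inflammatory genes, among them genes for their own inhibitors. IFN-γ acts through a receptor of its own and raises macrophage genes for antigen presentation, chemokines and nitric oxide synthesis.

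The cells carried the signature their label names. Signals of the macrophage genes Adgre1 (13.50 with vehicle, 13.53 with IL-1α), Cd68 (13.43 and 13.41) and Csf1r (12.56 and 12.67) were high on both arrays. The IFN-γ response genes Nos2 (13.02 with IL-1α), Cxcl9 (13.84) and Il12b (11.78) were high as well and differed between the arrays by 0.02 or less. Of the IL-4 response genes, Arg1 (6.75 and 6.55), Retnla (4.91 and 5.0) and Chil3 (5.71 and 5.80) lay below the floor of 7.62, the median signal of all genes over the 4 arrays, and Mrc1 lay just above it (8.0 and 7.91). The neutrophil gene Ngp (7.41 and 7.51) and the lymphocyte genes Cd3e (7.42 and 7.40) and Cd79a (5.6 and 5.54) were also below the floor. Of 11 lymphocyte markers measured, 2 reached the floor, Cd79b (8.07 and 8.05) and Cd4 (7.82 and 7.66), as did 2 of 14 neutrophil markers. A gene entered the comparison where at least 1 array of the pair reached that floor, as 10012 of 19938 genes did.

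IL-1α moved few genes far in these cells. None of the 10012 genes differed by 2-fold, 2 were at least 1.5-fold higher (0.02%) and 4 at least 1.5-fold lower (0.04%). At 1.2-fold, which is 0.26 on the log2 scale, 106 genes were higher with IL-1α (1.06%) and 158 were lower (1.58%), and at 1.1-fold the counts were 851 (8.5%) and 1039 (10.4%). At 1.2-fold, 22 of the higher and 19 of the lower genes had 1 of the 2 arrays under the floor. The median difference was 0.00 on the log2 scale, with an SD over genes of 0.11, and 49.2% of genes lay above 0. With the genes split by level into 5 equal bins, the SD was 0.13 in the dimmest and 0.09 in the brightest bin.

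With no replicate, the scatter that probe sets show within this pair of arrays was taken as a yardstick. It does not stand for the spread between cultures or animals. For 582 genes with several probe sets at the floor, the gap between the differences of the 2 brightest was taken. Its SD, divided by the square root of 2, came to 0.07 per probe set, so the gap itself spread more widely. Some pairs, such as those of Dnajc3 and Pgk1, had identical readings, which makes this SD smaller. Genes of the cytosolic ribosome had an SD of 0.08 over 54 genes. Receptor genes for odours and pheromones, most of them near or below the floor, had an SD of 0.14 over 1196 genes, and 44 of them read 1.2-fold higher and 35 lower. A difference of 1.2-fold in 1 gene is therefore within what dim probe sets show here, and the groups below are described by how many of their members lay to each side and by their median, beside the same over all genes.

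**Figure D1:**
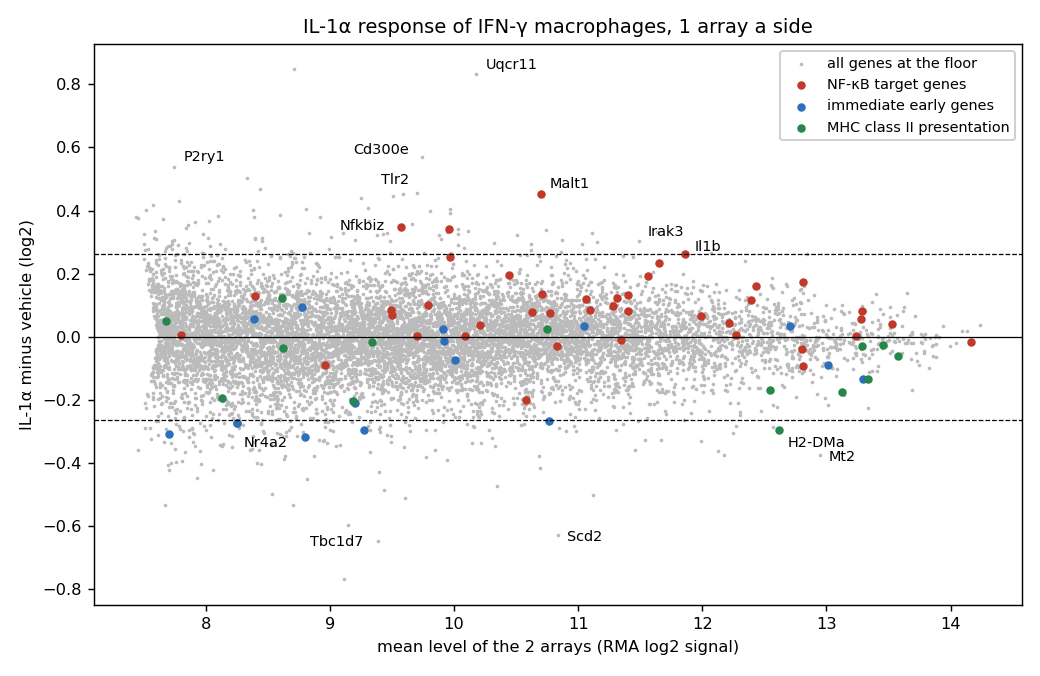
Difference in log2 signal (IL-1α minus vehicle, y axis) against the mean log2 signal of the 2 arrays (x axis) for the 10012 genes at the floor in IFN-γ macrophages, with NF-κB target genes, immediate early genes and MHC class II genes in colour and dashed lines at 1.2-fold. Most of the cloud lies between the lines, with Malt1 (0.45) and Tlr2 (0.46) above it and Tbc1d7 (-0.65) and Scd2 (-0.63) below it.

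The receptor complex itself differed little. The receptor gene Il1r1 and the kinase gene Irak4 were not analysed here. Il1rap, which encodes the accessory chain, read 7.72 with vehicle and 7.73 with IL-1α, and the decoy receptor gene Il1r2 was below the floor (5.95 and 6.05). The gene of the receptor antagonist, Il1rn, was bright and nearly level (12.93 and 12.90). Of the 17 members at the floor, 11 lay above 0, with a median difference of 0.02 against 0.00 for all genes.

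Irak3 was the exception among them. It encodes IRAK-M, a kinase-like protein that restrains signalling from the IL-1 and Toll-like receptors, and read 11.34 with vehicle and 11.64 with IL-1α. The difference of 0.30 (1.23-fold) ranked 67th from the highest of all genes and was the only 1 of the 17 past 1.2-fold. The activating kinase genes Irak1 (-0.03) and Irak2 (0.10), Traf6 (-0.01) and the TAK1 gene Map3k7 (0.05) differed by 0.10 or less. Myd88, the shared adaptor, was the lowest of the group, at 12.40 with vehicle and 12.26 with IL-1α, a difference of -0.15. In IL-4 macrophages Irak3 differed by 0.08 and Myd88 by 0.19.

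Components that carry the signal to IKK lay mostly to the higher side. Malt1, which encodes the protease and scaffold of the complex of CARD proteins, BCL10 and MALT1, read 10.47 with vehicle and 10.92 with IL-1α. That difference of 0.45 (1.37-fold) ranked 8th of all genes and came from 1 probe set. Its partner Bcl10 differed by 0.14 (10.82 and 10.95), whereas Card9, a CARD protein of myeloid cells, was the lowest at -0.08.

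The remaining members of that group differed by less. Traf2 (0.17), Birc2 (0.17) and Birc3 (0.12), which encode an adaptor and ubiquitin ligases of TNF receptor signalling, lay above 0, as did the genes of the IKK-related kinases Tbk1 (0.16) and Ikbke (0.12), Tank (0.13), Ikbkg (0.09) and Ikbkb (0.07). Birc2 had 2 probe sets that differed by 0.07 and 0.27. The 3 genes of the linear ubiquitin ligase, Rnf31, Rbck1 and Sharpin, each lay between -0.05 and -0.03. In all, 13 of the 17 members at the floor were above 0 (76.5%, against 49.2% of all genes), with a median of 0.09, and 1 was past 1.2-fold. Chuk and Traf3 were not analysed here.

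Of the NF-κB subunits and their inhibitors, Nfkbiz stood highest. Nfkbiz encodes IκBζ, a nuclear IκB protein that works with NF-κB at secondary response genes such as Il6 and Lcn2. It read 9.40 with vehicle and 9.75 with IL-1α, a difference of 0.35 (1.27-fold) that ranked 34th. Nfkbia, the gene of IκBα, read 12.35 and 12.51 (0.16), and the subunit genes Rel (0.13) and Nfkb2 (0.12) also lay above 0.

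Not every member of that group did. Rela, which encodes the p65 subunit, was the lowest, at 11.64 with vehicle and 11.50 with IL-1α (-0.14). Bcl3 (-0.01) and Nfkbil1 (-0.04) were also slightly below 0, and Nfkbib (0.00) and Nfkbid (0.03) were level. Of the 11 members, all at the floor, 8 were above 0 and the median was 0.09. Nfkb1 was not analysed here.

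Feedback regulators of NF-κB split into those that were higher and those that were lower. Zc3h12a encodes Regnase-1, an RNase that degrades cytokine mRNAs, and read 9.79 with vehicle and 10.13 with IL-1α (0.34, 1.27-fold). Its relative Zc3h12c read 10.94 and 11.27 (0.33, 1.26-fold). They were the only members of the 23 past 1.2-fold.

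Genes of proteins that edit or bind ubiquitin lay to both sides. Tnip1, whose product ABIN-1 binds A20, differed by 0.19, the deubiquitinase gene Otulin by 0.19 and Tnfaip3, the gene of A20, by 0.14, whereas the deubiquitinase genes Cyld (0.03) and Otud5 (-0.05) and the ABIN-2 gene Tnip2 (-0.05) were closer to 0. Lower values were those of the genes of the mRNA-decay protein tristetraprolin, Zfp36 (-0.21), its relative Zfp36l1 (-0.17) and the MAP kinase phosphatases Dusp5 (-0.26) and Dusp1 (-0.13). Other phosphatase genes of the list, Dusp2 (0.18), Dusp16 (0.04) and Dusp4 (0.03), lay above 0. In IL-4 macrophages Zc3h12a (1.1), Zc3h12c (1.40), Tnip1 (0.63) and Tnfaip3 (0.87) differed by more, and Zfp36 (-0.01), Zfp36l1 (0.06), Dusp5 (0.00) and Dusp1 (0.06) were level. The 23 members had a median of 0.03, with 14 above 0.

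The NF-κB target genes lay as a group to the higher side by a small amount. Of the 43 at the floor, 35 were above 0 (81.4%, against 49.2% of all genes), and their median difference was 0.08 against 0.00. At 1.1-fold 10 of them were higher and 2 lower (23.3% and 4.65%, beside 8.5% and 10.4% of all genes). At 1.2-fold 3 were higher, Malt1, Nfkbiz and Zc3h12a, and 1 was lower, Ier3 (8.39 and 8.11, -0.27). The list was chosen with earlier results of these data known, and Malt1 and Nfkbiz were markers named at the outset. It also holds genes counted in the groups above, such as Malt1, Birc3, Nfkbiz, Nfkbia, Rel, Nfkb2, Zc3h12a, Tnip1 and Tnfaip3. The groups are therefore not separate results.

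The cytokine members came next. Il1b, the gene of IL-1β, read 11.73 with vehicle and 11.99 with IL-1α, a difference of 0.26 that falls just short of 1.2-fold here and ran from 0.26 to 0.27 over the processing alternatives, so its side of that size depends on the processing. Il1a itself read 11.54 and 11.77 (0.23), Tnf 12.73 and 12.90 (0.17), and Ccl4, a chemokine gene, 9.84 and 10.09 (0.25). Il1a, Il1b and Tnf were therefore already bright on the vehicle array.

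Other targets were level or lower. The co-stimulatory receptor gene Cd40 read 12.86 with vehicle and 12.76 with IL-1α (-0.09), and Cd83, a surface marker of activation, 10.68 and 10.48 (-0.20). Values named after they were seen were those of Ptgs2, the gene of cyclooxygenase-2 (13.51 and 13.55), and of the adhesion molecule gene Icam1 (12.83 and 12.79), both level and bright, on an array whose brightest probe set read 14.40. The cytokine gene Il6 was below the floor (7.29 and 7.47).

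**Figure D2:**
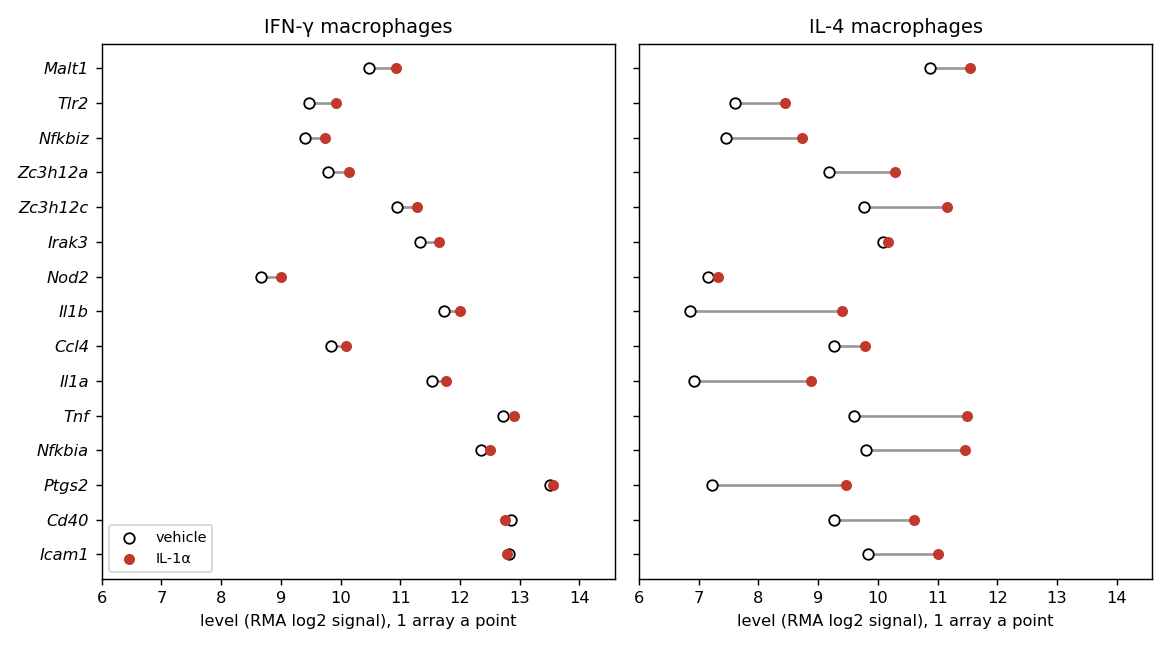
Log2 signal (x axis) of 15 NF-κB pathway and target genes (rows) on the vehicle array (open circles) and the IL-1α array (red) in IFN-γ macrophages (left panel) and IL-4 macrophages (right panel), 1 array each. In IFN-γ macrophages the circles of a gene lie close together and mostly further right (Ptgs2 at 13.51 and 13.55), whereas in IL-4 macrophages they lie further apart (Ptgs2 at 7.22 and 9.46) for every gene shown except Irak3 and Nod2.

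The starting levels of these genes in the 2 kinds of macrophage differed. The median vehicle signal of the 43 targets was 11.05 in IFN-γ macrophages and 9.41 in IL-4 macrophages. For 32 of the 43, the vehicle signal of IFN-γ macrophages was above the IL-1α signal of IL-4 macrophages. That held for 4864 of all 10012 genes. With its sign, the IL-1α difference was higher in IL-4 macrophages for all 43, with a median of 0.78 there. It was also higher there for 6666 of the 10012 genes, and the M2 pair as a whole had a median of 0.05. Some of the 43, such as Il1b and Ptgs2, reached the floor in IL-4 macrophages on the IL-1α array only. The 43 include Ier3, which was lower by more in IFN-γ macrophages (-0.27) than in IL-4 macrophages (-0.02). Nfkbia, for example, went from 9.80 to 11.45 in IL-4 macrophages and from 12.35 to 12.51 in IFN-γ macrophages. Whether the 2 responses differ beyond the spread between cultures cannot be tested with 1 array a group.

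Promoters of these genes were set out to show where NF-κB recognition letters lie. The decamer consensus of NF-κB was searched on both strands in RefSeq promoters of assembly GRCm38.p6, from 250 bases before to 50 bases after each start. It was in 16 of the 33 target genes with a promoter entry (48.5%) and in 6 of 9 genes of subunits and IκB proteins (66.7%). Of all promoters 8.46% held it, as did 12.2% of the genes at the floor that had an entry. Tlr2 and Nfkb2 are shown because each holds matches close to its start. Capitals mark the matches, which overlap and can be read on both strands. The Tlr2 stretch is chr3:83841589-83841858 on the minus strand and the Nfkb2 stretch chr19:46304487-46304756 on the plus strand, both written 5′ to 3′ and ending 20 bases after the start.
Tlr2: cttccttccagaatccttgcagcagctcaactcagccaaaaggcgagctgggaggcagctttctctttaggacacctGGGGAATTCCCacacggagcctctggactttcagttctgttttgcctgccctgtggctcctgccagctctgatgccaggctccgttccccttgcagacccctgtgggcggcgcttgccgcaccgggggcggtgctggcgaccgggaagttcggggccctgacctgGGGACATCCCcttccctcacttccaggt
Nfkb2: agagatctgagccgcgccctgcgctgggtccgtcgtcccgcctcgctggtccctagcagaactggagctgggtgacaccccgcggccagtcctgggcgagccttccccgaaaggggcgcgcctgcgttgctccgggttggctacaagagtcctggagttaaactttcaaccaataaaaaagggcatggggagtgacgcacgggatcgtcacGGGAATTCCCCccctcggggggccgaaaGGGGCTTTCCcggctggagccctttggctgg
Counted with overlaps, Tlr2 had 5 matches, which begin 173, 172 and 8 bases before the start, and Nfkb2 had 4, which begin 39, 38 and 11 bases before it. The Nfkb2 stretch was picked from 3 start sites in the table for its number of matches, and those of the other starts held 2 and 1. No match was found in the same 270 bases of Zc3h12a, Irak2, Nod2, Il1b and Icam1, which says only that these letters are not in those windows.

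Receptors for microbial patterns held the gene with the 7th highest difference of all. Tlr2, the receptor for bacterial lipoproteins, read 9.48 with vehicle and 9.93 with IL-1α (0.46, 1.37-fold). Nod2, the intracellular sensor of a cell wall peptide, read 8.67 and 9.00 (0.33), and Marco, a scavenger receptor gene, 9.89 and 10.18 (0.29). These 3 of the 24 members were past 1.2-fold and none was lower by that much, beside 1.06% and 1.58% of all genes.

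Over the whole group the median was 0.02, with 14 of 24 above 0. At 1.1-fold 6 were higher and 0 lower, beside 8.5% and 10.4% of all genes, among them, named after their values were seen, the inflammasome sensor gene Nlrp3 (10.22 and 10.46, 0.24) and the lectin receptor gene Clec4e (12.60 and 12.76, 0.16). The lowest were Tlr4, the receptor for lipopolysaccharide (10.73 and 10.61, -0.12), Tlr13 (-0.08) and Clec7a (-0.06). In IL-4 macrophages Tlr2 differed by 0.83, from 7.62 to 8.44, while Nod2 (0.16) and Marco (0.12) stayed below the floor on both arrays. Some marker genes of stromal and endothelial cells were also higher. Sparc (8.94 and 9.20), Acta2 (8.59 and 8.84) and Col1a2 (8.24 and 8.47) led, 5 of 7 members at the floor were above 0 and 6 of all 12 (median 0.03), and the summed signal of all 12 on the linear scale was 2867 with vehicle and 3115 with IL-1α (1.09-fold). Dcn and Cdh5 were below the floor, and the part of such cells in any result was not tested. In whole-culture RNA, a change in the number of cells of a type and a change in RNA per cell cannot be told apart.

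Genes that IFN-γ controls, and secreted factors, showed no common shift. Of 21 IFN-γ response genes at the floor 10 were above 0 (median 0.00), and of 24 genes stimulated by type I interferon 16 were (median 0.02). Gbp4, a guanylate-binding GTPase gene, was the highest of the former (13.33 and 13.47, 0.14) and Ciita the lowest (-0.20). Probe sets of the guanylate-binding family can cross-hybridise.

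Of the 18 chemokine genes at the floor, 9 were above 0 (median 0.00). Ccl4 (0.25), Cxcl2 (8.33 and 8.46, 0.13) and Cxcl11 (11.36 and 11.48, 0.11) were the highest. Ccl12 (10.33 and 10.07, -0.25), Ccl6 (11.54 and 11.30, -0.24) and Cxcl10 (13.77 and 13.61, -0.17) were the lowest. None was past 1.2-fold.

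Of the 30 genes of cytokines and their receptors at the floor, 12 were above 0 (median -0.03). After Il1b, Il1a and Tnf at the top, the lowest were the TNF family genes Tnfsf10 (10.68 and 10.45, -0.23) and Tnfsf9 (7.85 and 7.65, -0.20). The receptor genes for IFN-γ, Ifngr1 (11.62 and 11.49) and Ifngr2 (13.14 and 13.02), each differed by -0.12.

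The highest genes outside these groups had varied roles. Uqcr11, a small subunit of respiratory complex III, read 9.76 with vehicle and 10.60 with IL-1α (0.83, 1.78-fold), and its 2 probe sets differed by 0.78 and 0.89. No other of the 38 respiratory chain genes was past 1.2-fold, their median was 0.00 and 16 were above 0. Cd300e, an activating receptor gene of monocytes, read 9.46 and 10.03 (0.57). P2ry1, a receptor gene for ADP, read 7.48 and 8.02 (0.54), with its vehicle value under the floor.

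Relatives of Cd300e and P2ry1 did not share that shift. Of the 15 CD300 and purinergic receptor genes at the floor, only Cd300e, P2ry1 and Cd300lf (0.09) were above 0, and the median was -0.04. The other genes among the 10 highest were Sertad3 (0.47), the androglobin gene Adgb (0.45), the zinc finger gene Zfp407 (0.41), the membrane-bending protein gene Fnbp1l (0.41) and Rflnb (0.40). Rflnb had its vehicle value under the floor (7.32 and 7.72). Among genes that the naming rule leaves out, the uncharacterised AI504432 differed by 0.85 (8.29 and 9.14).

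Mir155, the gene of a microRNA that Toll-like receptors and NF-κB induce in macrophages, ranked 5th of all genes. It was named after its value was seen, since small RNAs were left out of the rule. It read 8.08 with vehicle and 8.58 with IL-1α, a difference of 0.50, and in IL-4 macrophages it differed by -0.15 below the floor. Whether the signal at such a gene is that of the mature microRNA was not tested. Of the 2 mature strands that RefSeq lists for the gene, miR-155-5p lies at chr16:84714143-84714165 on the plus strand and is shown with its seed, bases 2 to 8, in capitals.
mmu-miR-155-5p: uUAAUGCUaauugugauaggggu
Of the 61 microRNA genes at the floor, 48 were above 0 in IFN-γ macrophages, with a median of 0.06, and 9 were above 0 in IL-4 macrophages, with a median of -0.15. Of all genes, 49.2% and 69.3% were above 0 in these pairs. Receptor genes for odours and pheromones at the floor lay to the same sides, with 12 of 18 above 0 in IFN-γ macrophages and 5 in IL-4 macrophages.

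Of the 34 lists, that of the immediate early genes held the most members past 1.2-fold on the lower side. These encode transcription factors and regulators that stimulation switches on within minutes. Nr4a2 read 8.96 with vehicle and 8.64 with IL-1α (-0.32), Nr4a1 7.86 and 7.55 (-0.31) and Egr1 9.42 and 9.13 (-0.30). With Ier3 (-0.27) and Fos (10.90 and 10.63, -0.27), 5 of the 15 members that reached the floor were 1.2-fold lower or more and none was that much higher, beside 1.58% and 1.06% of all genes. Nr4a1 reached the floor on the vehicle array only, so it entered the count through the array where it was high. In IL-4 macrophages these 5 genes were below 0 as well, at -0.26 for Nr4a2, -0.14 for Fos, -0.11 for Nr4a1, -0.03 for Egr1 and -0.02 for Ier3. The median of the same 15 genes was -0.02 there, beside 0.05 for all genes.

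The group was not uniform. Its median was -0.09, with 10 members below 0, and Klf2 (0.09), Egr3 (0.06) and Klf6 (0.04) were the highest. Of its 15 members, 11 fall among the shortest genes, the first of 5 equal bins by span (up to 7172 bases), where 44.1% of all genes were above 0. The part of gene length in the result was not tested. In the MAP kinase and AP-1 group 5 of 16 members were above 0 (median -0.04). Apart from Fos, its lowest members were Jund (10.69 and 10.50, -0.19) and the kinase gene Map2k4 (-0.12), and its highest was the JNK gene Mapk8 (9.11 and 9.27, 0.16).

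MHC class II genes were mostly lower with IL-1α. H2-DMa, a subunit of the peptide editor that loads class II molecules, read 12.76 with vehicle and 12.47 with IL-1α (-0.30, 1.23-fold lower). Ciita, the class II transactivator, read 9.28 and 9.08 (-0.20), and H2-Oa, a modulator of the editor, 8.23 and 8.04 (-0.19). H2-Eb1, a class II chain gene named after its value was seen, read 13.21 and 13.03 (-0.17).

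Of the 14 members at the floor, 11 were below 0 (78.6%, beside 50.8% of all genes), with a median of -0.05, and 1 was past 1.2-fold. At 1.1-fold, 5 were lower and 0 higher (35.7% and 0%, beside 10.4% and 8.5%). The highest was the activator gene Rfx5 (8.56 and 8.68, 0.12), and H2-Ab1 was level (13.47 and 13.44, -0.03). In IL-4 macrophages the median was 0.03, and 7 of 12 members at the floor there were above 0. Ciita (-0.14), H2-DMa (-0.06) and, below the floor, H2-Oa (-0.25) were lower there too, whereas H2-Eb1 was higher (0.13). Over all genes of that pair the median was 0.05 and 69.3% were above 0. The genes of MHC class I presentation centred on -0.01 in IFN-γ macrophages, with 6 of 14 above 0.

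Some markers of dendritic cells, a cell type rich in class II molecules, were also lower. Clec9a, a receptor for dead cells, read 9.97 with vehicle and 9.59 with IL-1α (-0.38), Xcr1, a chemokine receptor gene, 8.44 and 8.24 (-0.21), and Ccr7 9.29 and 9.12 (-0.16). Of the 5 of 13 markers at the floor, 4 were below 0 (median -0.16), though Batf3 (-0.02) and Itgax (0.02) were close to level. The summed linear signal of all 13 was 4329 with vehicle and 4027 with IL-1α (0.93-fold). The summed signal of the 15 class II genes was likewise 0.93-fold. The defining genes Zbtb46 (7.46 and 7.43) and Flt3 (6.82 and 6.79) were below the floor. Over all 13 markers, floor or not, the median was -0.02 and 5 were above 0. The part of dendritic cells in the class II values was not tested.

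Antioxidant and metal genes held members at both ends. Slc7a11, the cystine transporter gene, read 11.00 with vehicle and 11.30 with IL-1α (0.30), and Txnrd1, a thioredoxin reductase gene, 10.91 and 11.08 (0.18). The metallothionein genes Mt2 (13.13 and 12.76, -0.38) and Mt1 (12.15 and 11.82, -0.33), whose products bind zinc, were the lowest, followed by Lcn2, the gene of an iron-scavenging protein (12.39 and 12.18, -0.21). Mt1 and Mt2 are close in sequence, so they may not be separate readings. The median of the 18 members at the floor was -0.01.

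Lipid synthesis genes lay mostly below 0. Scd2, a desaturase that makes monounsaturated fatty acids, read 11.15 with vehicle and 10.52 with IL-1α. Its difference of -0.63 (1.55-fold lower) was the 3rd lowest of all genes, and in IL-4 macrophages it was level (13.30 and 13.31). In the same group Fads3 (8.40 and 8.14, -0.26) and Elovl5, a fatty acid elongase gene (10.74 and 10.53, -0.21), were the next lowest, and 11 of 15 members at the floor were below 0 (median -0.03).

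In sterol synthesis, 12 of 17 genes at the floor were below 0, with a median of -0.08. Dhcr7, which makes cholesterol from its last precursor, read 8.92 with vehicle and 8.70 with IL-1α (-0.23), Fdft1, the squalene synthase gene, 9.13 and 8.91 (-0.22), and Hsd17b7 8.09 and 7.93 (-0.16). None was past 1.2-fold. Nsdhl (0.12), Hmgcs1 (0.10) and Fdps (0.09) lay on the other side, so the members did not share a direction. In IL-4 macrophages the median was 0.12 and 17 of 19 were above 0, beside a median of 0.05 and 69.3% for all genes there.

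The Y box letters CCAAT, or ATTGG on the other strand, are a known feature of class II and sterol promoters. They were in 8 of 10 class II genes with a promoter entry (80.0%) and in 14 of 14 sterol genes, beside 37.4% of all promoters and 41.9% of the genes at the floor with an entry. The 2 promoters below are shown because each holds more than 1 copy. H2-Eb1 lies at chr17:34305617-34305886 on the plus strand and Hsd17b7 at chr1:169969186-169969455 on the minus strand, both in GRCm38.p6 from RefSeq, with the letters in capitals.
H2-Eb1: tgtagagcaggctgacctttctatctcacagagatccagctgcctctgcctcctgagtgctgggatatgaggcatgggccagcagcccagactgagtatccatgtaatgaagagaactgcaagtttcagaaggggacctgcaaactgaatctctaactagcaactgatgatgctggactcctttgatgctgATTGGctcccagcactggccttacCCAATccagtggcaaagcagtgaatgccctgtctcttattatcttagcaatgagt
Hsd17b7: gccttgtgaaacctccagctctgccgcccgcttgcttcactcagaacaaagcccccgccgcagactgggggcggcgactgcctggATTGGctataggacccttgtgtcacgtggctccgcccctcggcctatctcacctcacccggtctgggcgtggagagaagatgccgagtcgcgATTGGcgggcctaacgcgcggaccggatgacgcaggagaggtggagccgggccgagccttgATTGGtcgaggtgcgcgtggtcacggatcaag
In H2-Eb1 the copies begin 59 and 35 bases before the start, and in Hsd17b7 they begin 165, 73 and 12 bases before it.

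**Figure D3:**
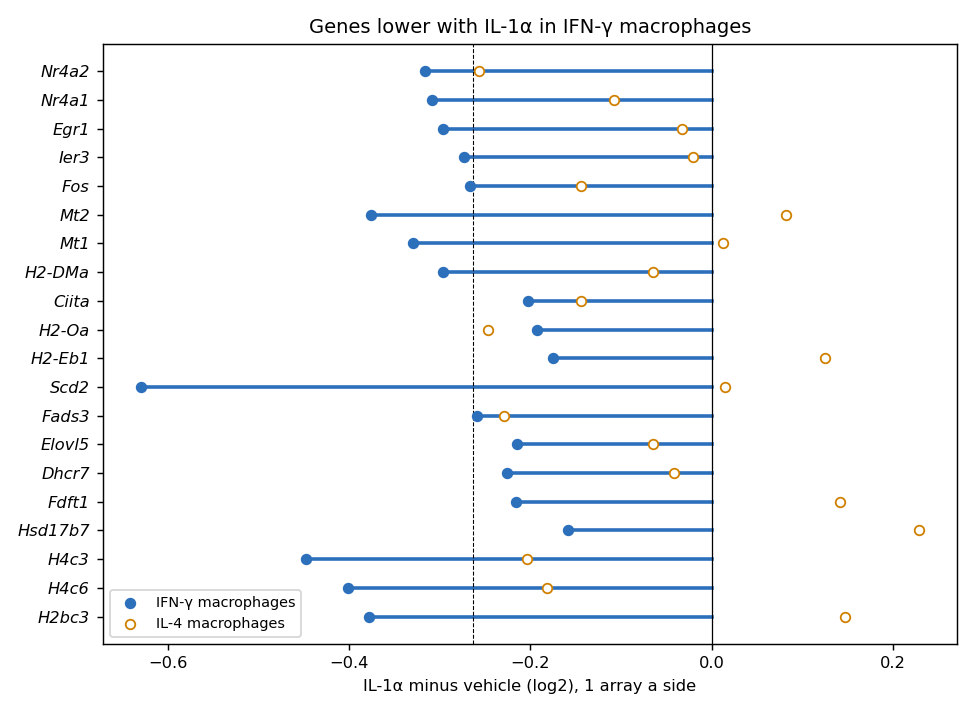
Difference in log2 signal (IL-1α minus vehicle, x axis) of 20 genes picked for being lower in IFN-γ macrophages (filled blue, with bars from 0), beside the difference of the same genes in IL-4 macrophages (open orange), 1 array a condition, with a dashed line at 1.2-fold. The blue points lie left of 0 by choice, from Scd2 (-0.63) to Hsd17b7 (-0.16). The orange points lie on both sides of 0, with Scd2 (0.01), Mt2 (0.08) and Fdft1 (0.14) among those to the right. Those to the left include Nr4a2 (-0.26), H2-Oa (-0.25, below the floor), Fads3 (-0.23) and Ciita (-0.14).

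The other genes among the 10 lowest have varied roles. Tbc1d7, a subunit of the TSC complex that restrains mTORC1, read 9.71 with vehicle and 9.07 with IL-1α (-0.65, 1.57-fold lower). Scnn1a, a sodium channel subunit gene, differed by -0.53, with its IL-1α value under the floor (7.94 and 7.41). Sectm1a differed by -0.53, the protamine gene Prm1 by -0.51, and the mitochondrial ribosome gene Mrps21 by -0.50. Ephx1, an epoxide hydrolase gene, differed by -0.50, the transporter gene Slc4a11 by -0.48, the Mediator subunit gene Med11 by -0.47 and Creb3l2 by -0.45. The small RNA genes Gm24463 (-0.77) and Snora44 (-0.60), outside the naming rule, complete the 4 genes past 1.5-fold on this side.

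Housekeeping groups had medians near 0, and proteasome genes lay mostly to the higher side. Of its 31 core subunit genes, 24 were above 0 (77.4%), with a median of 0.05. Psma2 (10.69 and 10.88, 0.19), Psma6 (0.16) and Psmc5 (0.16) were the highest and Psma7 (-0.10) the lowest, and none was past 1.2-fold. All 31 were above 0 in IL-4 macrophages, with a median of 0.12, where 69.3% of all genes were above 0.

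Cytosolic ribosomal protein genes had a median of 0.01 (20 of 33 above 0), glycolysis genes -0.02 (6 of 17) and genes of the unfolded protein response 0.00 (10 of 21). Bnip3 (10.68 and 10.46, -0.22) was the lowest of the glycolysis group and Sdf2l1, an endoplasmic reticulum chaperone partner (11.39 and 11.18, -0.22), of the unfolded protein response. Of the 17 cell cycle genes at the floor, 4 were above 0 (median -0.05). The replication genes Rrm2 (7.84 and 7.58, -0.26) and Mcm7 (8.35 and 8.09, -0.26) were the lowest, Rrm2 with only its vehicle value at the floor, and 10 more of the 27 measured were below the floor. Macrophage core genes had a median of 0.00, with Cebpb, a transcription factor gene of inflammatory macrophages, the highest (10.41 and 10.58, 0.17).

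**Figure D4:**
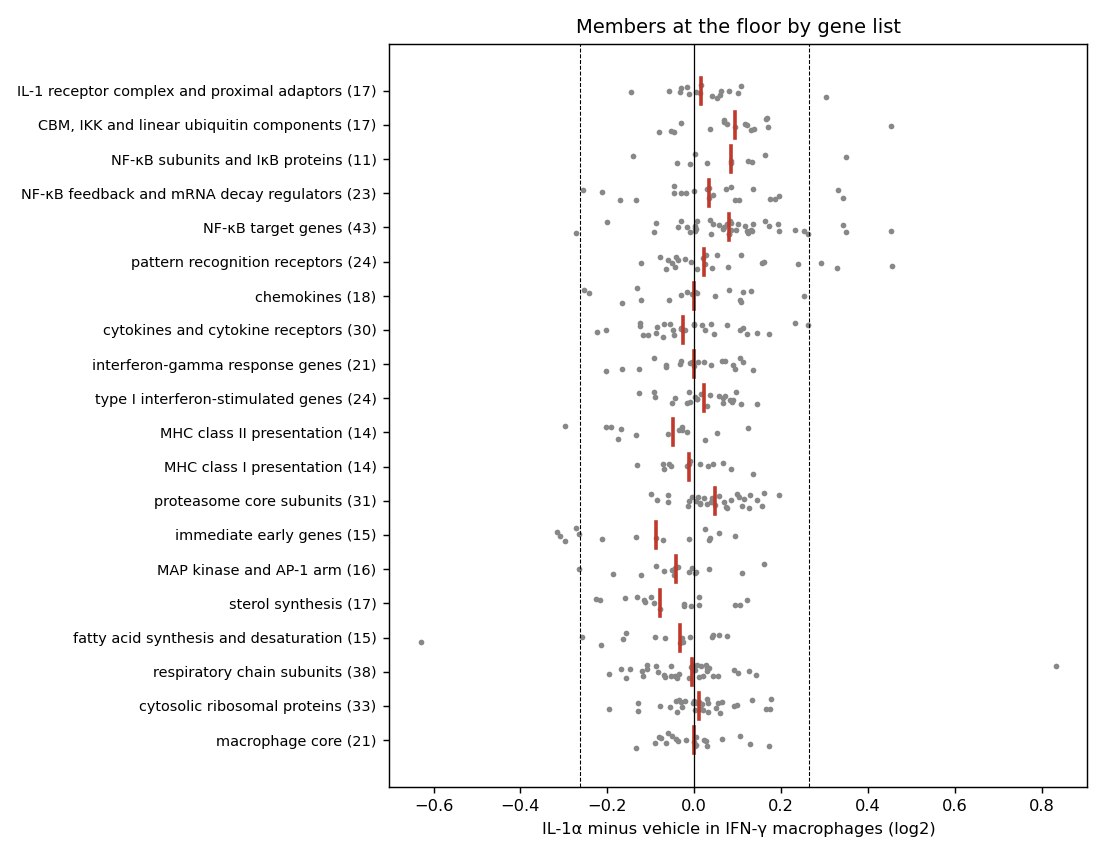
Difference in log2 signal (IL-1α minus vehicle, x axis) of the members at the floor of 20 gene groups in IFN-γ macrophages, with a red bar at each group's median and dashed lines at 1.2-fold. Medians lie close to 0, with NF-κB target genes at 0.08 and immediate early genes at -0.09, and few points pass the lines. Some groups share genes.

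The genes past 1.2-fold in the 2 kinds of macrophage were set beside each other. In IL-4 macrophages 692 of 10284 genes were higher (6.73%) and 162 lower (1.58%). The genes higher in both numbered 23, which is 21.7% of the 106 in IFN-γ macrophages and 3.32% of the 692. The M2 pair as a whole lay above 0, with a median of 0.05. With each of its arrays centred on its own median, 298 of its genes were higher and 493 lower, and 15 of the higher ones were shared (14.2% and 5.03%).

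Among the 23 shared genes were Tlr2, Malt1, Nfkbiz, Zc3h12a, Zc3h12c, P2ry1, Sertad3, Fnbp1l and Slc7a11. Rgs16, a regulator of G-protein signalling (0.36 in IFN-γ and 0.42 in IL-4 macrophages), and Ahr, the aryl hydrocarbon receptor gene (0.27 and 0.41), were named after their values were seen. On the lower side 3 genes were shared, 1.90% of 158 and 1.85% of 162, and 9 with the M2 arrays centred (5.70% and 1.83% of 493). Uqcr11 differed by 0.16 in IL-4 macrophages, Cd300e by -0.14 below the floor, and Tbc1d7 by 0.23. Across the 9671 genes at the floor in both pairs, the Pearson correlation of the differences was 0.10, which describes these arrays, since genes are not independent replicates.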

How the data were processed

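Gene expression was read from a 1-colour Affymetrix mouse array, with 1 array per group, and source names gave the groups. The authors deposited log2 signals per probe set, summarised by RMA in the Affymetrix Expression Console software (per the submitters' processing notes). Tool versions and the log base are not given in the sources used here. RMA sets arrays to a common distribution and compresses differences of dim probe sets.

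Of 35556 probe sets, 21789 carried 1 gene in the platform annotation and entered the comparison, 1621 carried several and 12146 none. Symbols of 21698 were matched to RefSeq (GRCm38.p6). A gene with more than 1 probe set (999 of 19938) took their mean. A gene was used where at least 1 array of the pair reached the median of all genes, a log2 signal of 7.62. Differences are IL-1α minus vehicle, and a gene was counted past a size of 1.2-fold. No statistical test was possible with 1 array a side, which limits the precision.

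The 34 gene lists hold 702 symbols, of which 634 were measured and 532 reached the floor. The size rule, the genes studied and these lists were chosen with earlier results of these data known. Named genes were the 10 highest and 10 lowest (without clones, predicted genes, small RNAs, receptor segments and the genes of olfactory and vomeronasal receptors), the members of the lists for the receptor complex, IKK components, NF-κB subunits and feedback regulators, up to 3 at each end of the other lists, and the markers Malt1, Tlr2, Nfkbiz, Nos2, Cxcl9, Il12b and Ciita. Alternatives were the absence of a floor, a higher floor at the 75th percentile (9.63), arrays centred on their medians, loess (lowess in statsmodels 0.14.6, span 0.3), quantile normalisation of the 4 arrays, use of the brightest probe set, and sizes of 1.1, 1.5 and 2-fold. Scripts in Python 3.11.15 (pandas 2.3.3, numpy 2.4.6) were tested on simulated data.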

Additional observations from a re-analysis of the deposited data

Results flagged for a closer look

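Probe sets that carry several genes or none in the platform annotation were left out of the gene comparison, yet 89 of them differed by at least 1.5-fold between the 2 arrays of IFN-γ macrophages, 62 higher and 27 lower with IL-1α. They were drawn from 5488 such probe sets at the floor, of 13767 in all. Their differences ran from -1.47 to 1.42, and at 1.2-fold 10.0% were higher and 5.30% lower, beside 1.06% and 1.58% of the genes. Their SD was 0.20 against 0.11 for genes. No control sample exists for this signal, and without a gene name it was not followed further.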

How the results depend on the processing

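No paired analysis was possible because each group has 1 array. Of the 243 named or listed genes recomputed, none past 1.2-fold changed direction under the floor, scaling and probe set alternatives, nor did any list with a median of at least 0.05 either way. Mir155, AI504432, Gm24463, Snora44, Rgs16, Ahr, Nlrp3, the histone genes and others outside the naming rule were not recomputed. The values of the 243 moved by less than 1 SD over genes (0.11) in 1410 comparisons, as did the medians of 31 lists in 181. That SD is larger than most list medians, so a small median could change side and still count as unmoved. The median of mast cell and osteoclast markers did so, running from -0.07 to 0.09. The counts depend on the floor and the size. Without a floor, 459 genes were 1.2-fold higher and 341 lower in IFN-γ macrophages, 865 were lower in IL-4 macrophages, and the medians of dendritic cell (-0.0246) and stromal markers (0.0266) moved. With the floor at the 75th percentile the counts were 37 and 49 in IFN-γ and 221 and 15 in IL-4 macrophages. Centring each array gave 298 higher and 493 lower in IL-4 macrophages. At 1.1-fold the counts in IFN-γ macrophages were 851 and 1039, at 1.5-fold 2 and 4, and at 2-fold 0 and 0. The cause of these changes was not tested. Signal over background limits dim genes most, since the SD over genes was 0.13 in the dimmest of 5 level bins and 0.09 in the brightest.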

Other observations

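Clustered histone genes, a family named after its values were seen, were lower with IL-1α in IFN-γ macrophages. Of 13 at the floor, 12 were below 0, with a median of -0.23, and 5 were at least 1.2-fold lower, beside 50.8% and 1.58% of all genes. H4c3 read 8.15 with vehicle and 7.70 with IL-1α (-0.45), H4c6 8.61 and 8.21 (-0.40) and H2bc3 8.83 and 8.45 (-0.38), and H2ac1 was the only 1 above 0 (0.20). These genes encode the core histones that dividing cells make in S phase. In IL-4 macrophages the median of the same genes was -0.08, with 2 above 0. Members of the family are close in sequence and can share signal.

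The share of genes above 0 ran with the span of the gene in IFN-γ macrophages. Over 5 equal bins from the shortest span to the longest it was 44.1%, 45.1%, 47.5%, 52.0% and 57.0%. At 1.2-fold, 56 genes were lower and 31 higher in the bin of the shortest genes, and 18 lower and 25 higher in that of the longest. Genes of the mitochondrial ribosome had a median of -0.01, with 34 of 77 above 0.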
